A study of Arabidopsis thaliana with 6 samples.

Results

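The genes described here belong to the protein families that move membrane and cargo through the plant secretory pathway. They were chosen by symbol: every gene whose name starts with PRA1, EXO70, or with SEC, SYP, VAMP or VPS followed by a digit. Of 16550 genes that a probe of the array measured alone, 35 met this rule, namely 14 PRA1 genes, 11 SEC genes and 10 VPS genes. The same rule finds 116 genes in the gene table used for naming. By symbol, 35 of these are the measured genes. The 81 others, among them all 23 EXO70, 23 SYP and 11 VAMP genes, had no probe of their own under the annotation used and were not analysed here. Each of the 35 genes is represented by 1 probe.

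RNA came from suspension-cultured Arabidopsis thaliana cells, all transformed with estrogen-inducible VND1-GFP. VND1 is a NAC-domain transcription factor that can start the differentiation of xylem vessel elements. Induced cells (3 arrays) had received estrogen at 5 µM for 24 h and uninduced cells (3 arrays) had been kept for 24 h without it, all grown in the dark at 23 °C and 124 rpm. Every sample carries the construct, and estrogen-treated cells without it are not among the samples, so an effect of VND1 and an effect of estrogen cannot be told apart. The labels name neither the number of clones behind the culture nor separate cultures for the samples of a group, so p-values measure only how these samples vary, possibly for technical reasons.

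Secretory vesicles leave the Golgi apparatus, are held at their target membrane by tethers such as the exocyst, and fuse through SNARE proteins that are assisted by SM (SEC1/MUNC18) proteins. Rab GTPases mark each membrane, and PRA1 proteins (prenylated Rab acceptors) are small membrane proteins that bind them. Cargo can also leave for the vacuole through multivesicular bodies, whose inner vesicles are formed by the ESCRT complexes, which contain many of the VPS proteins. In developing vessel elements, wall polymers and wall enzymes are secreted in quantity, and exocyst subunits together with microtubules direct this secretion to the wall thickenings.

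The arrays gave 1 value per probe on a log2 scale, with array medians from 5.41 to 6.15. The titles number the arrays in 2 consecutive stretches, called runs here. The first replicate of each group makes up the run of 2, where values were mostly higher, and the 4 remaining arrays make up the run of 4. What the numbering records is not stated, and each run holds both groups. 5 measured genes of the vessel programme, TBL33, TBL34, GUT2, IRX15-L and PRX72, were all higher in induced cells by 2.78 to 5.04 on the log2 scale (limma, adjusted p from 0.000800 to 0.0266). The 5 measured markers of green tissue, which dark-grown culture cells should lack, lay below the array median on all 6 arrays. Their differences ran from -0.36 to 0.94, with 3 above 0 and 2 below, and 0 passed the test. The highest was that of LHCB4.3, at 0.94 ± 0.36 (SE, limma adjusted p = 0.827, or 0.104 when the run was blocked). 4 markers of dividing cells, AUR1, AUR2, BUBR1 and PRL, differed by -0.43 to -0.33, and none passed the test. Each had all induced arrays below all uninduced ones, as did 7.81% of all probes. With trended, robust moderation and the run blocked, 1 of the 4 was lower (BUBR1, limma adjusted p = 0.0156). That setting called 1.10% of all probes lower. The part of cell division in the values below was not tested.

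None of the 35 traffic genes passed the test for a difference between induced and uninduced cells. The count was 0 higher and 0 lower (limma with Benjamini-Hochberg adjustment over all 38408 probes, adjusted p under 0.05), while 0.534% of all probes were higher and 0% lower. At an unadjusted p under 0.05, 2 of the 35 genes were higher and 1 was lower, beside 3.0% and 2.74% of all probes. Differences were small: 34 of the 35 lay within 0.5 of 0 on the log2 scale, and the full range ran from -0.38 to 0.76. Most of the array was as close to 0, with 15597 of the 16550 genes measured alone (the named genes) within 0.5. In RNA from whole cultures, fewer cells of a type and less RNA per cell cannot be told apart, so a change in a small share of cells would appear diluted here.

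The 95% intervals show how large a difference remains possible. In the fit of the 2 groups they lay between -1 and 1 for 32 of the 35 genes, and for 10813 of the 16550 named genes. PRA1.B5 (up to 1.12), PRA1.G2 (up to 1.04) and VPS24.2 (from -1.38 to 1.02) reached beyond. With the run as a block the intervals lay between -1 and 1 for 34 of the 35 genes and between -0.5 and 0.5 for 26. Among the named genes these counts were 15458 and 8501. The blocked fit also called 0 higher and 0 lower among the 35, beside 0.992% and 0.0338% of all probes. At an unadjusted p under 0.05 the blocked fit had 3 genes higher and 1 lower, beside 7.11% and 8.49% of all probes.

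**Figure D1:**
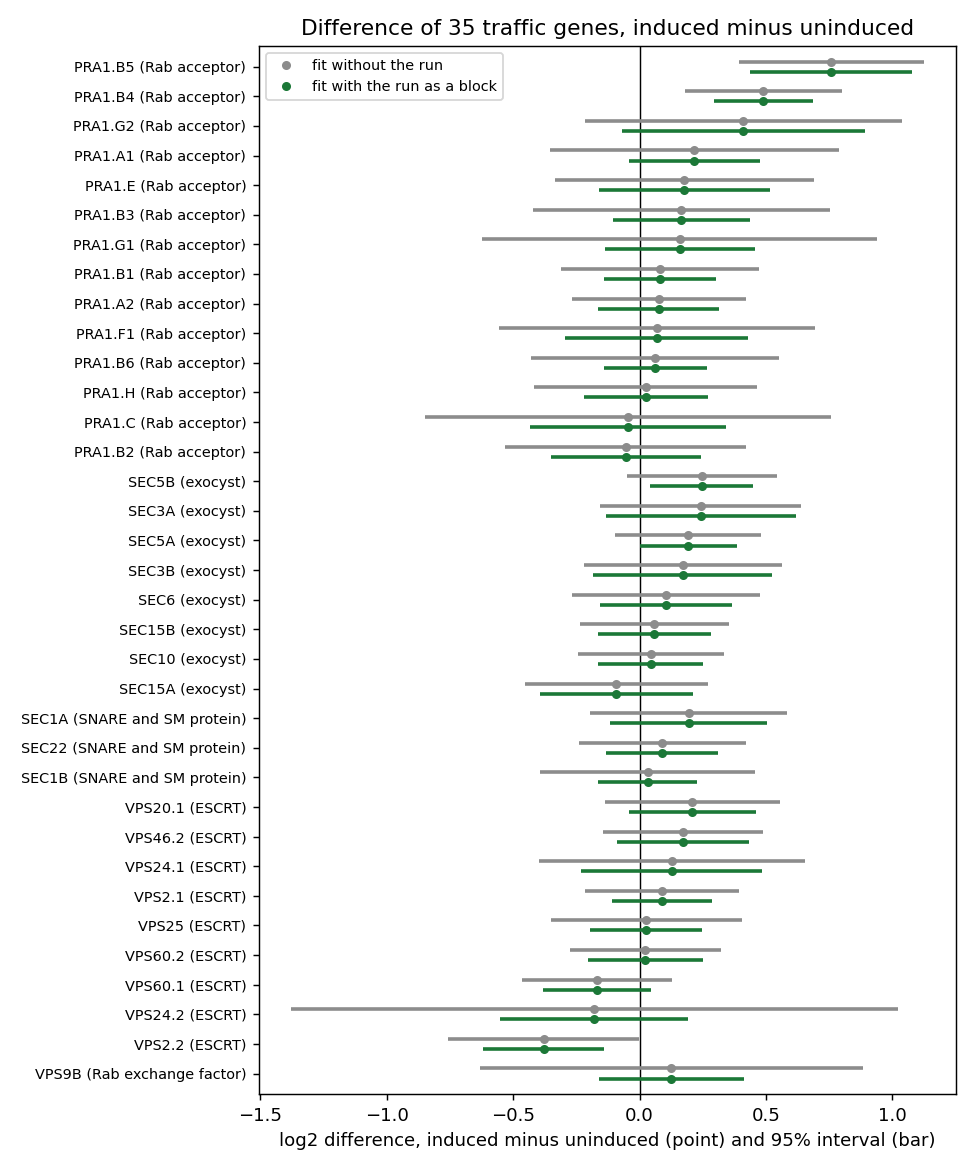
Log2 difference (induced minus uninduced, horizontal axis) of the 35 genes, grouped by role; points are estimates from 6 arrays and bars are 95% intervals, grey for the fit without the run and green for the fit with the run as a block. The intervals of PRA1.B5 and PRA1.B4 lie above 0 in both fits, that of VPS2.2 lies below 0 in both, and most others cross 0.

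The 2 differences of largest size belonged to the PRA1 family. PRA1.B5 (AT5G01640) had log2 values of 8.32, 8.33 and 8.30 on the induced arrays and 7.67, 7.33 and 7.68 on the uninduced arrays. All 3 induced arrays lay above all 3 uninduced ones, and the induced arrays hardly differed among themselves. The difference was 0.76 ± 0.15 (SE, n = 3 per group), a 1.69-fold higher level, with a limma adjusted p of 0.250 (0.109 when the run was blocked). Within the runs it was 0.65 in the run of 2 and 0.81 in the run of 4.

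PRA1.B4 (AT2G38360) had values of 11.39, 11.19 and 11.23 on the induced arrays and 10.85, 10.74 and 10.75 on the uninduced arrays, again with no overlap. The difference was 0.49 ± 0.13 (SE, n = 3 per group), or 1.40-fold, with a limma adjusted p of 0.519 (0.0964 when the run was blocked). It was 0.54 and 0.46 in the runs of 2 and 4. Both genes passed the threshold in 2 of 18 tested alternative settings. With variance moderation by a trend and robust estimation, the limma adjusted p was 0.0468 for PRA1.B5 and 0.0480 for PRA1.B4 (2 members higher and 0 lower, beside 0.914% and 0.0365% of all probes). When the run was blocked too, it was 0.0213 and 0.00360, and these 2 genes were the only calls among the 35 (2 higher and 0 lower, beside 2.09% and 1.10% of all probes). The same setting called the division marker BUBR1 lower.

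The other PRA1 genes of the B group were closer to 0. PRA1.B1, PRA1.B2, PRA1.B3 and PRA1.B6 differed by -0.05 to 0.17, each with overlapping groups. PRA1.B6, which acts on the exit of cargo from the endoplasmic reticulum, had values of 9.31, 8.97 and 8.88 on induced arrays and 9.28, 8.87 and 8.83 on uninduced arrays. Whether PRA1.B4 and PRA1.B5 differ from these relatives in their response was not tested.

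Among the remaining PRA1 genes, PRA1.G2 (AT5G56230) rested on 1 array. Its induced values were 7.06, 6.17 and 6.42 and its uninduced values 6.18, 6.04 and 6.19. The groups overlapped, and induced replicate 1 alone stood well above the rest. The difference of 0.41 ± 0.25 (SE) was made of 0.88 in the run of 2 and 0.18 in the run of 4, and was 0.15 without induced replicate 1. PRA1.A1 (AT5G02040) had induced values of 9.40, 8.78 and 8.76 against 8.99, 8.69 and 8.61, a difference of 0.22 ± 0.23 (SE) with overlapping groups. This difference was 0.41 in the run of 2 and 0.12 in the run of 4, and 0.0063 without induced replicate 1. The other 6, PRA1.A2, PRA1.C, PRA1.E, PRA1.F1, PRA1.G1 and PRA1.H, differed by -0.05 to 0.18.

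Over the family, 12 of 14 differences were above 0, against 49.2% of named genes, while 0 passed the test in either direction. The median was 0.12. In the run of 2, 14 were above 0 (median 0.22), and in the run of 4, 10 were (median 0.11). 2 of the 14 had groups that did not overlap, both with induced arrays above, while 5.70% of all probes lay apart in that way and 7.81% in the other. For 12 of the 14 genes, all but PRA1.B4 and PRA1.B5, the difference between the runs was larger than that between the groups, as it was for 75.5% of named genes. The run of 2 was higher for all 14, and for 88.9% of named genes. PRA1.C, PRA1.E, PRA1.F1 and PRA1.G1 lay below the array median on all 6 arrays. PRA1.F1 (2.53 to 3.33) also lay in the lowest 25% of probes on all 6 arrays, a range in which a difference in RNA may not show. PRA1.C was matched by symbol only, as the gene table lists this symbol under another identifier than the array annotation does.

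**Figure D2:**
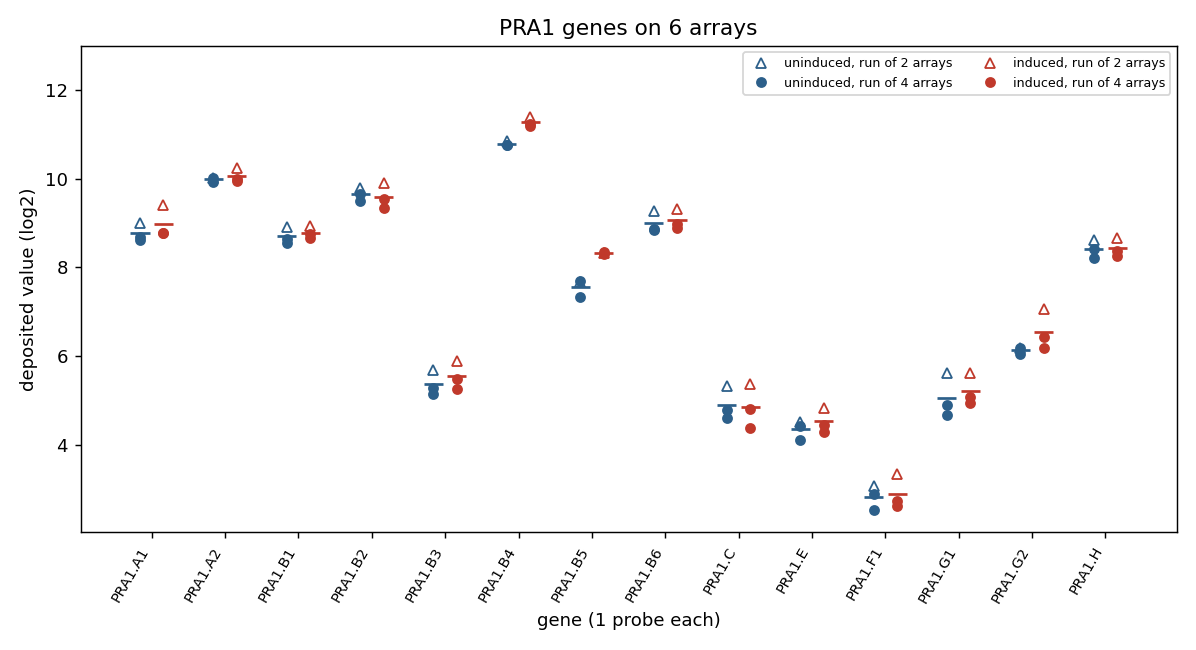
Deposited log2 values (vertical axis) of the 14 PRA1 genes on the 6 arrays, uninduced in blue and induced in red, with open triangles for the run of 2 arrays, filled circles for the run of 4 and lines for group means. Induced and uninduced points are fully apart for PRA1.B4 and PRA1.B5 and overlap for the other 12.

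Of the exocyst, the tether that joins post-Golgi vesicles to the plasma membrane, 8 genes for 5 subunits were among the members. Of these 8 genes, 0 passed the test in either direction. SEC5B (AT1G21170) had values of 9.04, 9.14 and 9.06 on induced arrays and 8.75, 8.88 and 8.88 on uninduced arrays. Its groups did not overlap, with a difference of 0.25 ± 0.12 (SE), and a limma adjusted p of 0.956 (0.265 when the run was blocked). SEC5A (AT1G76850), which codes for the other copy of this subunit, had values of 8.65, 8.54 and 8.57 against 8.45, 8.36 and 8.38. These groups did not overlap either, and the difference was 0.19 ± 0.12 (SE, limma adjusted p = 0.9999, and 0.319 with the block).

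SEC3A (AT1G47550) and SEC3B (AT1G47560) code for the subunit that helps to place the complex at the plasma membrane, and they are neighbours in the gene table. SEC3A had induced values of 9.97, 9.68 and 10.09 and uninduced values of 9.56, 9.67 and 9.78, a difference of 0.24 ± 0.16 (SE). SEC3B differed by 0.17 ± 0.16 (SE). The groups of both genes overlapped. How far a probe of one copy also measures its close relative was not tested for SEC3A and SEC3B, or for the other pairs of copies.

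The SEC6, SEC10 and SEC15 genes differed by no more than 0.11 in size. SEC10 (AT5G12370) had values of 11.86, 11.77 and 11.71 on induced arrays and 11.73, 11.73 and 11.74 on uninduced arrays. Its difference of 0.04 ± 0.12 (SE) had a 95% interval from -0.25 to 0.33. SEC6 differed by 0.11 ± 0.15, SEC15B by 0.06 ± 0.12 and SEC15A by -0.09 ± 0.15 (SE). The median over the 8 genes was 0.14, with 7 above 0, against 49.2% of named genes. Within the runs the median was 0.21 in the run of 2 and 0.042 in the run of 4. EXO84B (AT5G49830), an exocyst subunit outside the symbol rule, differed by 0.16 ± 0.15 (SE). No exocyst gene had an interval reaching 1 in either direction, the highest bound being 0.64 and the lowest -0.45.

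The fusion step was represented by 3 members, and 0 passed the test in either direction. SEC1A (AT1G02010), an SM protein gene, had induced values of 7.53, 7.15 and 7.31 and uninduced values of 7.17, 7.24 and 6.99, with overlapping groups and a difference of 0.19 ± 0.16 (SE). Its relative SEC1B differed by 0.03 ± 0.17 (SE). SEC22 (AT1G11890), a SNARE of transport between the endoplasmic reticulum and the Golgi apparatus, differed by 0.09 ± 0.13 (SE). KEU (KEULE, AT1G12360), the SM protein of cytokinesis, is outside the symbol rule and differed by 0.11 ± 0.13 (SE), from 9.40 ± 0.12 to 9.51 ± 0.04 (SD, n = 3).

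The VPS genes included the negative differences of largest size. VPS2.2 (AT5G44560), which codes for an ESCRT-III subunit, had values of 7.65, 7.29 and 7.48 on induced arrays and 7.98, 7.74 and 7.83 on uninduced arrays. All 3 induced arrays lay below all 3 uninduced ones. The difference was -0.38 ± 0.15 (SE, n = 3 per group), with a limma adjusted p of 0.866 (0.197 when the run was blocked). It was -0.34 in the run of 2 and -0.40 in the run of 4. Its relative VPS2.1 (AT2G06530) had values of 11.11, 10.97 and 10.96 against 10.99, 10.93 and 10.85, a difference of 0.09 ± 0.12 (SE) with overlapping groups.

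VPS60.1 (AT3G10640), which codes for another protein of the ESCRT-III family, also had all induced arrays below all uninduced ones, at 8.01, 8.17 and 8.09 against 8.24, 8.23 and 8.30. The difference was -0.17 ± 0.12 (SE, limma adjusted p = 0.9999, and 0.409 with the block), while its relative VPS60.2 differed by 0.02 ± 0.12 (SE). VPS46.2 (AT1G73030, also CHMP1A), also of the ESCRT-III family, lay the other way, with 8.75, 8.85 and 8.71 above 8.65, 8.47 and 8.67. Its difference was 0.17 ± 0.13 (SE, limma adjusted p = 0.9999, and 0.481 with the block). A probe that the annotation pairs with both VPS46.2 and AT1G73040 was not used and went the other way. It differed by -0.25 ± 0.79 (SE) with overlapping groups, by -0.35 in the run of 2 and -0.20 in the run of 4. The values of this shared probe (3.48 to 5.83) lay below the array median on every array. Its run of 2 stood 1.94 above its run of 4.

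VPS24.2 (AT3G45000) was decided by 1 pair of arrays. Its values were 5.74, 4.86 and 4.87 on induced arrays and 6.29, 4.92 and 4.80 on uninduced arrays, and the run of 2 stood 1.15 above the run of 4. The difference of -0.18 ± 0.48 (SE) consisted of -0.54 in the run of 2 and 0.0028 in the run of 4, and was 0.30 without uninduced replicate 1. VPS20.1 (AT5G63880) had values of 7.17, 6.91 and 7.13 against 6.97, 6.76 and 6.85, a difference of 0.21 ± 0.14 (SE). VPS24.1, a relative of VPS24.2, differed by 0.13 ± 0.21 and VPS25, of ESCRT-II, by 0.03 ± 0.15 (SE).

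In all, 9 of the 10 VPS genes code for ESCRT proteins. Their median difference was 0.03, with 6 above 0 and 3 below, and 0 passed the test in either direction. Of named genes, 49.2% were above 0. VPS9B (AT5G09320), a relative of the factor that activates endosomal RAB5 GTPases, differed by 0.13 ± 0.31 (SE), with 0.35 in the run of 2 and 0.01 in the run of 4.

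**Figure D3:**
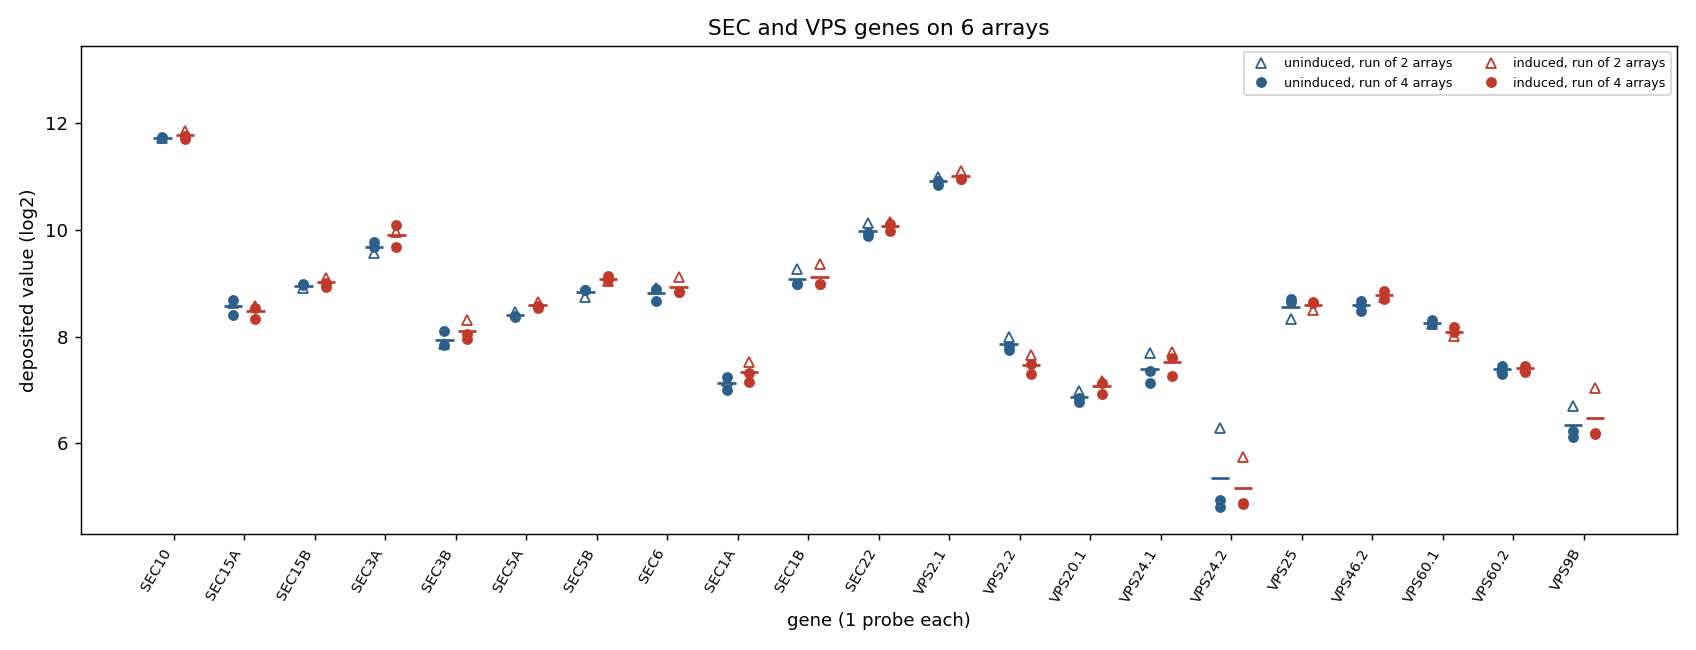
Deposited log2 values (vertical axis) of the 11 SEC and 10 VPS genes on the 6 arrays, uninduced in blue and induced in red, with open triangles for the run of 2 arrays, filled circles for the run of 4 and lines for group means. Induced points lie fully above uninduced ones for SEC5A, SEC5B and VPS46.2 and fully below for VPS2.2 and VPS60.1; in VPS24.2 the 2 triangles stand apart from the circles.

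Although no single gene passed, the differences of the 35 genes were mostly above 0. They were above 0 for 29 of the 35 genes (82.9%), against 49.2% of all named genes, and their median was 0.09 against -0.004. The count was 31 in the run of 2 and 26 in the run of 4. In both runs 25 genes were above 0 and 3 below, while 30.9% and 31.7% of named genes were. Most members had a high signal: 29 lay above the median mean level of named genes, and 25 of these had differences above 0, against 41.9% of the named genes above that level. In both runs 22 of the 29 were above 0, against 30.7%. Genes of 1 array share its labelling and hybridisation and are not independent, so these shares are descriptions and carry no test.

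All induced arrays lay above all uninduced ones for 5 of the 35 genes, PRA1.B4, PRA1.B5, SEC5A, SEC5B and VPS46.2, against 5.70% of all probes. All lay below for 2, VPS2.2 and VPS60.1, against 7.81%. For 23 of the 35 genes the difference between the runs exceeded that between the groups, a smaller share than the 75.5% of named genes. These shares were not compared at a like signal level, and most members had a high signal.

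**Figure D4:**
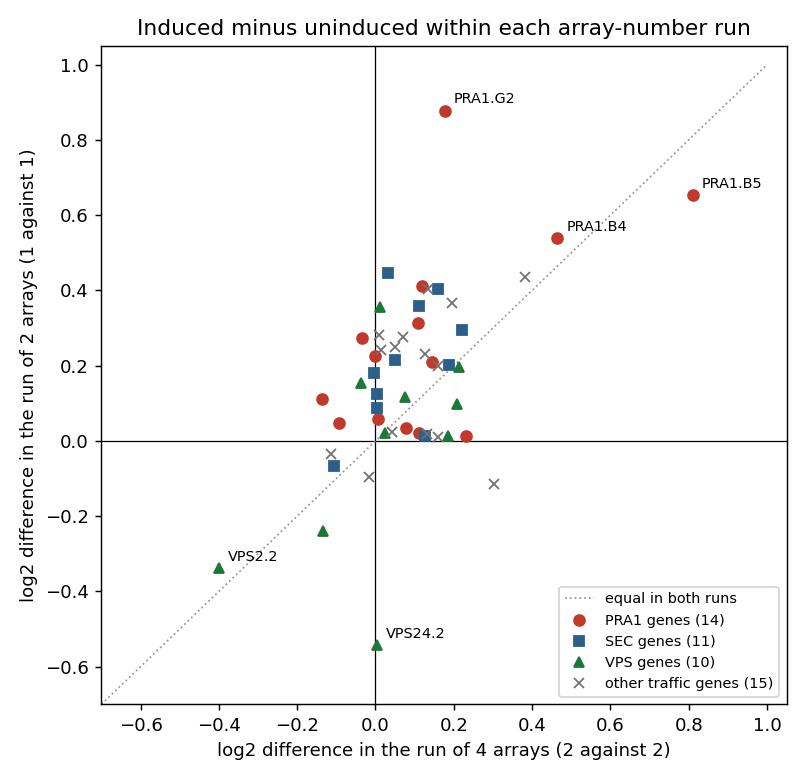
Log2 difference between induced and uninduced arrays in the run of 4 (horizontal axis, 2 arrays against 2) and in the run of 2 (vertical axis, 1 against 1) for the 35 members by family and 15 other traffic genes. PRA1.B4, PRA1.B5 and VPS2.2 lie near the line of equal differences, while PRA1.G2 (0.88 against 0.18) and VPS24.2 (-0.54 against 0.0028) lie farther from 0 in the run of 2 than in the run of 4.

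Other genes of the pathway, listed by function and found by symbol or synonym, gave a similar picture. Of 15 measured, 0 were higher, 0 were lower and 15 did not pass the test. At an unadjusted p under 0.05, limma also gave 0 and 0, beside 3.0% and 2.74% of all probes. With the run as a block it gave 2 and 0, beside 7.11% and 8.49%. The median difference of the 15 genes was 0.12, and 13 were above 0 (86.7%), against 49.2% of named genes. The other 2, named after their values were seen, were MAG2, a Golgi-to-endoplasmic reticulum tether, at -0.09 ± 0.18 and ELC, of ESCRT-I, at -0.04 ± 0.29 (SE), both with overlapping groups. SNF7.1 (AT4G29160), the main filament subunit of ESCRT-III, differed by 0.40 ± 0.30 (SE), from values of 6.52, 5.88 and 5.82 to 6.96, 6.16 and 6.30. The groups overlapped across runs, but the difference was 0.44 and 0.38 within them (limma adjusted p = 0.9999, or 0.173 when the run was blocked). SNF7.2, its relative, differed by 0.12 ± 0.17 (SE).

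TPLATE (AT3G01780), of a complex for clathrin-mediated endocytosis, had values of 9.13, 9.09 and 8.89 on induced arrays and 8.77, 8.82 and 8.77 on uninduced arrays. AT1G09330, known as ECH (ECHIDNA), a protein of the trans-Golgi network that is needed for secretion, had values of 11.39, 11.13 and 11.09 against 10.99, 10.95 and 11.00. CLUB (AT5G54440), the TRS130 subunit of the TRAPPII tether, had 8.44, 8.37 and 8.31 against 8.24, 8.16 and 8.19. The groups did not overlap for these 3 genes, with differences of 0.25 ± 0.13, 0.22 ± 0.14 and 0.17 ± 0.12 (SE) and limma adjusted p from 0.966 to 0.9999. They were 3 of the 15 with induced arrays above, beside 5.70% of all probes, and 0 lay below.

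The small GTPases ARA6 (RABF1) and RAB6A (RABH1B) differed by 0.09 ± 0.15 and 0.04 ± 0.15 (SE). The adaptor subunits AT4G24550 (AP4M) and AT5G46630 (AP2M) differed by 0.14 ± 0.14 and 0.09 ± 0.16 (SE). ATYKT62, a SNARE gene with low signal (2.80 to 3.30), differed by 0.16 ± 0.16 (SE). 11 genes carry a name of the same families only as a synonym, and KEU, SNF7.1 and SNF7.2 are among them and among the 15. All 11 had differences above 0, from 0.04 to 0.40, against 49.2% of named genes, and 0 passed the test in either direction. PRA7 (PRA1.F2) differed by 0.15 ± 0.13 and PRA8 (PRA1.F3) by 0.24 ± 0.16. AT1G18830 (SEC31A) and AT3G63460 (SEC31B), which code for the outer COPII coat of vesicles leaving the endoplasmic reticulum, differed by 0.18 ± 0.14 and 0.04 ± 0.13 (SE).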

How the data were processed

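The authors deposited 1 log2 value per probe and array, which per the submitters' processing notes came from Affymetrix Expression Console 1.3. For the log base (read from the value range), background correction, summarisation and normalization, the method is not given in the sources used here. Nothing further was normalized. Groups come from the labelled stimulation, and replicate numbers follow deposition order and were not used to pair samples, although replicate 1 of both groups lies in the run of 2. Of 38408 probes, 16722 had 1 gene in the array annotation, 759 several and 20927 none. Symbols were updated by gene identifier from a RefSeq table of TAIR10.1, and no coordinates are printed.

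The comparison used limma (version 3.58.1, R 4.3.3; lmFit and eBayes, no trend, not robust), with Benjamini-Hochberg adjustment over all probes, checked on simulated data. SE is moderated and SD is over 3 arrays. The number of arrays limits the precision. Members, lists and tests were chosen with earlier results of these data known. Values were planned for the 4 members per family with the largest difference and the one with the highest mean, and up to 2 genes per other list; further members are named to complete complexes. In the fixed lists, SLY1 (AT4G24210) and CHC1 (AT5G14170) were left out because these symbols belong to other proteins, and no ARF machinery gene was found. The synonym list was added after the annotation was seen. A promoter motif search was planned and not run. HRA1, ROF2 and ATHSP22.0 of a stress list differed by -0.67, -1.17 and -0.19 (0 of 3 passed). For ROF2 all induced arrays lay below all uninduced ones, as for 7.81% of all probes (limma adjusted p = 0.778, or 0.204 when the run was blocked). The groups of HRA1 and ATHSP22.0 overlapped.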

Additional observations from a re-analysis of the deposited data

Results flagged for a closer look

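Probes that the annotation pairs with several genes were not used for the 35 genes, and 6 of them include a gene of these families. On 1 of the 2 probes shared by PRA1.A3 and AT3G11402 all induced arrays lay above all uninduced ones, as on 5.70% of all probes. The values of this probe were 8.57, 8.31 and 8.23 against 8.13, 8.03 and 8.03. The difference was 0.30 ± 0.14 (SE, limma adjusted p = 0.946, or 0.238 when the run was blocked). The other probe of this pair differed by 0.08 ± 0.14 (SE), with overlapping groups. The values cannot be assigned to either gene. The 5 other shared probes, the second probe of this pair included, differed by -0.29 to 0.08, all with overlapping groups. The lowest, shared by PRA1.A2 and AT5G05990, differed by -0.29 ± 0.30 (SE, limma adjusted p = 0.9999, or 0.240 when the run was blocked). Within the runs it was -0.25 in the run of 2 and -0.30 in the run of 4.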

How the results depend on the processing

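The counts of members called, 0 higher and 0 lower, held in all settings with a test except 2. The calls were 2 higher under trended, robust moderation, and 2 higher again when that moderation was combined with the run as a block. The 15 other traffic genes stayed at 0 in both directions. The members' median lay between 0.063 and 0.15 over the settings that keep or split all arrays by run, and between 0.011 and 0.18 when 1 array was left out. Then 21 to 31 of 35 differences were above 0, but the share of named genes above 0 moved as well, from 24.3% without induced replicate 1 to 69.4% without uninduced replicate 1, since leaving out an array unbalances the runs. VPS24.2 changed sign in the run of 4 alone (0.0028) and without uninduced replicate 1 (range over left-out arrays -0.47 to 0.30). Quantile normalization and centring each array on its median, also with the run as a block (added after seeing the data), left 29 differences above 0. Taking the mean over probes changed nothing, as each member has 1 probe.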
